A study of Mus musculus with 6 samples.

Results

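The lysosomal gene set comprised 34 genes out of the 56923 in the deposited table, taken by symbol: 7 cysteine peptidases, 3 other peptidases, 11 enzymes that strip sugars or sulfate, 4 enzymes and cofactors of lipid breakdown, 7 membrane proteins, the transcription factor gene Tfeb and the cathepsin inhibitor gene Cst3. All 34 were found and all 34 passed the filter on low values. They were read in punches of the locus coeruleus, a small noradrenergic nucleus of the brainstem, by bulk poly-A RNA sequencing of 3 libraries from 5xFAD transgenic mice (numbered 64, 65 and 79) and 3 from wildtype (WT) mice (62, 63 and 66). The 5xFAD line expresses human transgenes altered as in familial Alzheimer's disease from the Thy1 promoter in neurons and deposits amyloid. No agent was given to either group in the labels, which state neither age nor sex nor whether a library came from 1 mouse or from pooled mice, so the p-values measure only how these samples differed, which may be partly technical.

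Lysosomes are acidic organelles in which hydrolases break down proteins, glycans and lipids delivered by endocytosis and autophagy. Hydrolases are made in the endoplasmic reticulum, receive a mannose 6-phosphate tag in the Golgi and are carried to the lysosome by sorting receptors, and many cathepsins become active only after cleavage there. TFEB binds a palindromic E-box called the CLEAR element in the promoters of many lysosomal genes and raises their transcription. In the brain, inherited loss of single lysosomal enzymes causes storage disease, and neurites swollen with lysosomes gather around amyloid plaques.

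The libraries held 15158712 to 17774759 reads in 5xFAD and 17362733 to 20079349 in WT, and values are given as normalized counts, reads divided by 1 size factor per library. Thy1, whose promoter drives the transgenes, averaged 20324 ± 2983 in 5xFAD and 8607 ± 571 in WT (SD, n = 3 each), in the direction of the labels. App, the mouse gene of the amyloid precursor protein, was level at 27844 ± 1857 in 5xFAD and 28160 ± 722 in WT. Transcripts of noradrenergic neurons were present in every library, with 10 markers summing to 9749 to 14001 in 5xFAD and 6873 to 12565 in WT, and none of the 10 was at 0. The punches also held other tissue. Summed markers of cerebellar granule cells were 5335 to 12543 in 5xFAD and 2832 to 9909.7 in WT. Those of meningeal fibroblasts were 2642 to 3873 in 5xFAD and 2467 to 2734 in WT. All 8 granule cell and all 10 fibroblast markers had higher values in 5xFAD (median log2 fold changes 1.26 and 0.40), against 8232 of all 16411 tested genes. Of 5 tested choroid plexus markers 4 were lower (median −0.32). None of these markers passed the limma test. Choroid plexus markers summed to 373 to 420.1 in 5xFAD and 371 to 1551 in WT, the highest value being that of WT 66. In such bulk tissue, fewer cells of a type and less RNA per cell cannot be told apart.

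Transcripts of the 34 lysosomal genes were read at closely similar levels in 5xFAD and WT tissue. In the limma test adjusted over all 16411 tested genes, 0 of the 34 passed, where 1 gene in all passed (0.00609%). That gene was Thy1, whose promoter drives the transgenes (limma adjusted p = 0.0456). None of the 34 had an unadjusted p under 0.05, which 2.32% of all tested genes had. The smallest unadjusted p among them was 0.278 (limma, for Gla). The edgeR and DESeq2 tests on recovered reads, which called 0.00609% and 0.0244% of all tested genes, also called 0 of the 34, with none at an unadjusted p under 0.05. The groups of 3 overlapped for every one of the 34 genes, while 7.42% of all tested genes had groups that did not overlap. Values were higher in 5xFAD for 17 genes and lower for 17, and 50.2% of all tested genes were higher. Fold changes are 5xFAD over WT and were taken on log2(normalized count + 1). Their median was 0.00067 for the 34 genes and 0.00053 for all tested genes.

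The intervals bounded these differences tightly. The 95% interval of the log2 fold change lay within a 1.5-fold change in both directions for 34 of 34 genes (71.4% of all tested genes) and within 1.25-fold for 29 of 34 (47.2% of all tested genes). The median of the largest fold that the interval allowed was 1.15, with Psap the tightest at 1.09 and Naglu the widest at 1.44. Precision follows depth, and 26 of the 34 genes lay above the median level of all tested genes, so the comparison of these shares with all genes is in part one of level. The genes outside the 1.25-fold bound were Naglu, Gla, Tfeb, Ctsh and Sgsh, none of them above 395 normalized counts in any library.

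**Figure D1:**
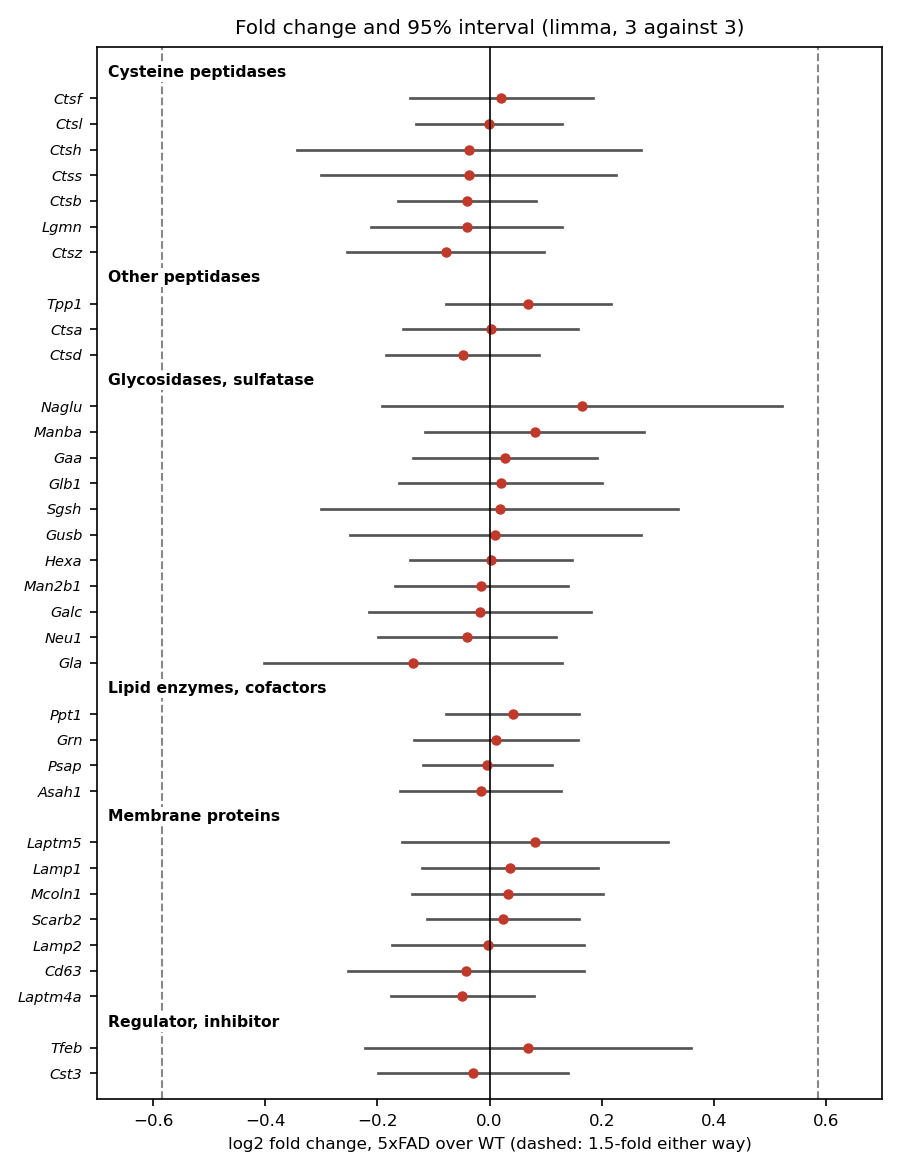
Log2 fold change of each lysosomal gene, 5xFAD over WT (points), with its 95% interval from limma (lines, 3 libraries against 3), grouped by role; dashed lines mark a 1.5-fold change. All 34 intervals include 0 and stay inside the dashed lines, with Naglu reaching 0.52 and Gla reaching −0.40.

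Levels between genes were compared per kilobase of annotated exon, over a range of more than 2 orders of magnitude. Psap, the precursor of the saposins that help enzymes reach membrane lipids, was the highest at 8907 normalized counts per kb in 5xFAD and 8932 in WT. Cst3, which encodes the secreted cysteine peptidase inhibitor cystatin C, followed at 6696 in 5xFAD and 6843 in WT. Lamp1, a heavily glycosylated protein of the limiting membrane, had 3142 in 5xFAD and 3062 in WT, and Ctsd, the aspartyl peptidase, had 2462 in 5xFAD and 2548 in WT. The lowest were Naglu, an enzyme of heparan sulfate breakdown, with 28.7 in 5xFAD and 25.5 in WT, and Tfeb with 31.2 in 5xFAD and 29.7 in WT. Exon length was the union over all annotated transcripts, so genes with many or long isoforms, such as Galc, may be placed too low in this order.

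**Figure D2:**
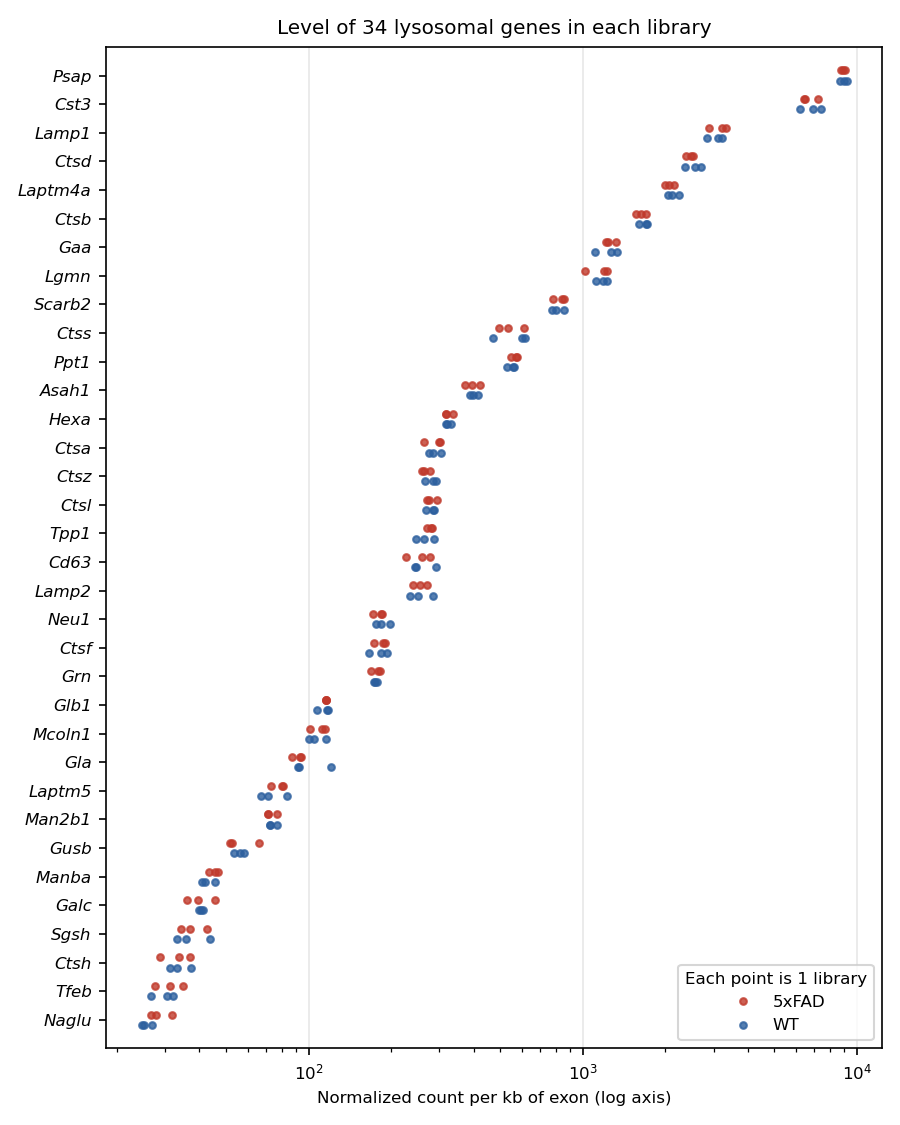
Level of each lysosomal gene in each library as normalized count per kb of annotated exon on a log axis, with genes in order of their WT mean; each point is 1 library. The order runs from Naglu at 28.7 in 5xFAD and 25.5 in WT to Psap at 8907 in 5xFAD and 8932 in WT, and the red and blue points of each gene overlap.

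Cysteine peptidases, the largest class of lysosomal endopeptidases, had 6 of 7 members with lower values in 5xFAD, none of which passed the test. Ctsb, the abundant cathepsin B, read 9833, 9493 and 10281 in 5xFAD and 10394, 9721 and 10328 in WT, a log2 fold change of −0.04 (SE 0.055). Both 5xFAD 65 and WT 63 were low and the groups overlapped. Ctsl, the endopeptidase cathepsin L, read 1916, 1778 and 1758 in 5xFAD and 1864, 1746 and 1844 in WT, and its 95% interval reached no further than 1.10-fold. Ctss, cathepsin S, an enzyme concentrated in microglia and other antigen-presenting cells, read 829, 724 and 671 in 5xFAD and 812, 641 and 835 in WT. Its log2 fold change was −0.04 (SE 0.12), and its range from WT 63 to WT 66 spanned the whole range of the 5xFAD libraries. Lgmn, the asparaginyl endopeptidase legumain, which trims other cathepsins, read 2772, 2364 and 2839 in 5xFAD and 2749, 2592 and 2844 in WT. Ctsz, a carboxypeptidase, had the lowest value relative to WT in this class, 384 ± 13.8 in 5xFAD and 405 ± 19.3 in WT (SD, n = 3 each). Its log2 fold change was −0.08 (SE 0.078). The remaining members were Ctsf with a log2 fold change of 0.02 and the aminopeptidase Ctsh with −0.04. The count of 6 lower of 7 became 5 of 7 with quantile normalization, where the value of Ctsb turned, and ranged from 3 to 7 of 7 when each library was left out in turn.

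Among the peptidases of other classes, Ctsd read 5824, 5594 and 5944 in 5xFAD and 6350.5, 5562 and 6057 in WT, a log2 fold change of −0.05 (SE 0.061). WT 63 was the lowest library and WT 62 the highest. Ctsa, a serine carboxypeptidase that also protects Glb1 and Neu1 in a complex, read 1406, 1248 and 1423 in 5xFAD and 1339, 1295 and 1432 in WT, a log2 fold change of 0.0023 (SE 0.070). Tpp1, the tripeptidyl peptidase lost in a childhood form of neuronal ceroid lipofuscinosis, averaged 1434 ± 29.3 in 5xFAD and 1369 ± 103 in WT, a log2 fold change of 0.07 (SE 0.065).

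The glycosidases and the sulfatase included the genes with the widest differences, and none of these passed. Naglu read 74.0, 84.2 and 71.0 in 5xFAD and 66.9, 65.4 and 71.5 in WT, a log2 fold change of 0.16 (SE 0.16), and rested on as few as 64 reads in a library. Only 5xFAD 79 was inside the WT range. Gla, alpha-galactosidase A, whose loss causes Fabry disease, read 305, 285 and 306 in 5xFAD and 298, 300.2 and 395 in WT, a log2 fold change of −0.14 (SE 0.12). The WT mean was set by WT 66, without which the log2 fold change was −0.0031. Gaa, the acid alpha-glucosidase that breaks down glycogen and is lost in Pompe disease, was the most abundant of these enzymes per kb and read 5907, 6309 and 5825 in 5xFAD and 6088, 6365 and 5291 in WT. Its highest libraries, 5xFAD 65 and WT 63, were among the lowest for many other genes of the set. Hexa, the alpha subunit of beta-hexosaminidase, read 632, 674 and 633 in 5xFAD and 635, 638 and 662 in WT, a range of 1.07-fold over the 6 libraries. Glb1, beta-galactosidase, was level across 5xFAD at 348 ± 0.318 (SD, n = 3), against 352, 355 and 323 in WT, and a spread that small in 3 libraries is below counting error. The sialidase Neu1 and the galactosylceramidase Galc, which breaks down a myelin lipid, had log2 fold changes of −0.04 and −0.02. The beta-glucuronidase Gusb, the mannosidases Man2b1 and Manba and the sulfamidase Sgsh had values of 0.01, −0.02, 0.08 and 0.02.

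Lipid enzymes and cofactors were the steadiest class, with a median SD within groups of 0.042 on the log2 scale, against 0.138 over all tested genes. Psap read 24439.6, 23969 and 24912 in 5xFAD and 24611, 23716 and 25202 in WT, a log2 fold change of −0.0038 (SE 0.052) and a range of 1.06-fold. Grn, progranulin, a regulator of lysosomal function that microglia express strongly, read 633, 587 and 624 in 5xFAD and 604, 616 and 607 in WT, a log2 fold change of 0.01 (SE 0.065). Asah1, acid ceramidase, and Ppt1, which removes palmitate from proteins, had log2 fold changes of −0.02 and 0.04.

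Membrane proteins followed the same pattern of overlapping groups. Lamp1 read 8607, 7704 and 8901 in 5xFAD and 8343, 7629 and 8599 in WT, a log2 fold change of 0.04 (SE 0.070). Lamp2, a related protein whose A isoform serves chaperone-mediated autophagy, read 2437, 2300.3 and 2579 in 5xFAD and 2392, 2248 and 2706 in WT. In both genes 5xFAD 65 and WT 63 were the 2 lowest libraries. Scarb2, the sorting receptor of glucocerebrosidase, averaged 5181 ± 256 in 5xFAD and 5097 ± 266 in WT (SD, n = 3 each). Laptm5, a membrane protein of blood-derived and microglial cells, read 277, 304 and 305 in 5xFAD and 253, 270.1 and 316 in WT, and its log2 fold change was 0.08 (SE 0.11). The tetraspanin Cd63, the calcium channel gene Mcoln1 and the transmembrane protein gene Laptm4a had log2 fold changes of −0.04, 0.03 and −0.05.

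Tfeb, the transcription factor gene of the set, read 198, 156 and 177 in 5xFAD and 181, 151 and 173 in WT, a log2 fold change of 0.07 (SE 0.13). TFEB is controlled mainly by phosphorylation and nuclear entry, which transcript counts do not measure. Cst3 read 8119, 9101 and 8210.0 in 5xFAD and 8742, 7852 and 9394 in WT, a log2 fold change of −0.03 (SE 0.075). 5xFAD 65 and WT 66 were its 2 highest libraries.

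Promoters of the set are shown because TFEB binds the CLEAR element in the promoters of many lysosomal genes. RefSeq promoter windows (GRCm38.p6, 250 bases before to 50 after the annotated start site) were found for 31 of the 34 genes. The E-box core CACGTG, which reads the same on both strands, lay in a window of 12 of the 31 (38.7%), against 8.09% of 27025 genes with a window. The 8-base form TCACGTGA, which contains the core, lay in 4 of the 31 (12.9%), against 1.12% of genes, and that form with a further G before and C after it in 0 of the 31, against 0.370%. The median GC content was 56.3% in the windows of the set and 52.7% in all windows. A match is a description of the letters and not evidence of binding, and a core or 8-base form is not called a CLEAR element here. The 3 windows below were picked for the most cores (Lamp1, 4 cores), for 2 copies of the 8-base form on either side of the start site (Ctsa), and for an abundant peptidase with both forms (Ctsd). They are written 5′ to 3′ on the strand of the gene with each core in capitals: Lamp1 at chr8:13158911-13159210 (plus strand), Ctsa at chr2:164833523-164833822 (plus strand) and Ctsd at chr7:142387778-142388077 (minus strand).
Lamp1: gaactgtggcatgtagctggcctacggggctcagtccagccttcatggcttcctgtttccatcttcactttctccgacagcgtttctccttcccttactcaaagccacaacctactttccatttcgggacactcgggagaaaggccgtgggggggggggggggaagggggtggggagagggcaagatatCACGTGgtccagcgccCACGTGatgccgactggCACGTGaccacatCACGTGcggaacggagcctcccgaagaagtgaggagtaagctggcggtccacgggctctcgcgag
Ctsa: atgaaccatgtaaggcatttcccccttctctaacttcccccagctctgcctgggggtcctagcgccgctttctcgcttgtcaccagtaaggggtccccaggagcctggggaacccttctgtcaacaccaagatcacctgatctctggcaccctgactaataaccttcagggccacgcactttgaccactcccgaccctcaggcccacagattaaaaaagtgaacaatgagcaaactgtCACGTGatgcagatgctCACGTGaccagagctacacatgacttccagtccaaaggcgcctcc
Ctsd: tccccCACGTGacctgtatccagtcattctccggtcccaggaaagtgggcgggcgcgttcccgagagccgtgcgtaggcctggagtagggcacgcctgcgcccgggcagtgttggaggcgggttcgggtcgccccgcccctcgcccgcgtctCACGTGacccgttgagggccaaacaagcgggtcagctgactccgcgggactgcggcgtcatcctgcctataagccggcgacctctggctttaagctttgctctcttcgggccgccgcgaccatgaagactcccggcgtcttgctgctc
In the Lamp1 window the first bases of the cores lie at −61, −45, −28 and −15 from the start site. The 12 genes with a core were Ctsa, Ctsd, Ctsf, Ctsl, Gaa, Gla, Glb1, Lamp1, Lgmn, Mcoln1, Naglu and Sgsh, and their log2 fold changes ran from −0.14 for Gla to 0.16 for Naglu, which are also the extremes of the whole set.

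**Figure D3:**
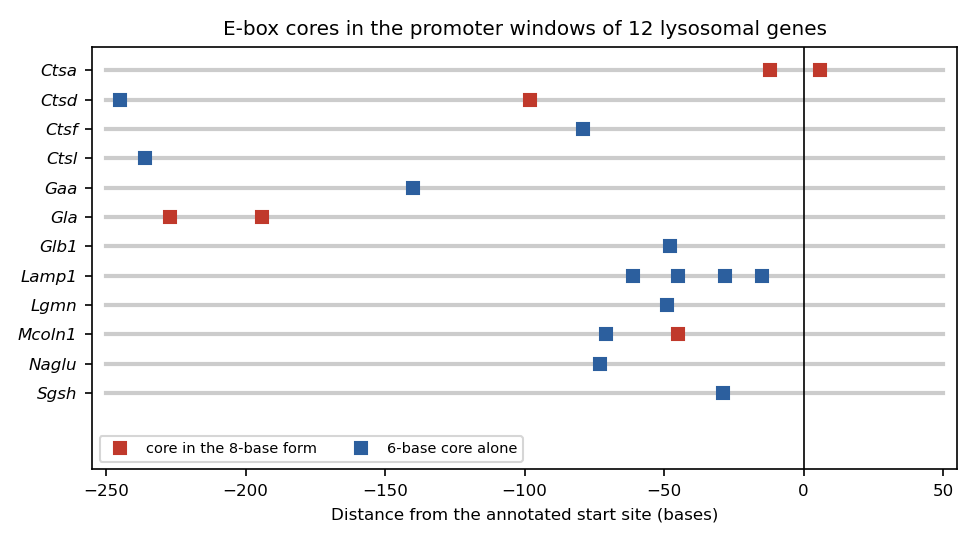
Position of each E-box core in the promoter windows of the 12 lysosomal genes that have one, in bases from the annotated start site (0); red squares are cores within the 8-base form. Lamp1 has 4 cores and Ctsa, Ctsd, Gla and Mcoln1 have 2 each.

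The rest of the lysosomal pathway was read from 7 further lists, and 0 of their genes passed in the limma test. Other lysosomal hydrolases had 13 higher and 22 lower values of 35 tested, a median log2 fold change of −0.01, with none at an unadjusted p under 0.05. Man2b2, a further mannosidase, had the smallest p of this list at 387 ± 8.43 in 5xFAD and 433 ± 12.8 in WT (SD, n = 3 each), and Rnaset2a, a ribonuclease, and Ctsc, an aminopeptidase that activates serine proteases of immune cells, had log2 fold changes of 0.28 and 0.19. The 2 most abundant, the sulfatase Ids and the exonuclease Pld3, had values of −0.02 and −0.04. Other lysosomal membrane and related proteins had 17 higher and 15 lower values of 32 tested. Sidt2, a lysosomal membrane protein linked to RNA uptake, read 875, 876 and 811 in 5xFAD and 782, 779 and 746 in WT, a log2 fold change of 0.15 (SE 0.063, limma adjusted p = 0.9995). Its lowest 5xFAD library was above its highest WT library. In the same list Entpd4, Abca2 and Lmbrd1 had log2 fold changes of −0.12, 0.06 and −0.03.

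Subunits of the vacuolar ATPase, the proton pump that acidifies the lysosome, had lower values in 15 of 18 genes, by small amounts. Lower values were found for 8179 of all 16411 tested genes. The median log2 fold change of the 18 subunits was −0.04, and none had an unadjusted p under 0.05. The 95% interval of all 18 lay within 1.5-fold. The count of lower values was 15 with TMM scaling and with quantile normalization too, and 12 to 15 when each library was left out in turn. Atp6v1c1 averaged 4059 ± 177 in 5xFAD and 4376 ± 171 in WT, and Atp6v1e1 averaged 4474 ± 237 in 5xFAD and 4745 ± 168 in WT (SD, n = 3 each). Atp6v1a, Atp6v1b2 and Atp6v0e had log2 fold changes of −0.06, −0.05 and 0.14. Neurons are rich in this pump, and 7 of 10 pan-neuronal markers also had lower values in 5xFAD, with a median log2 fold change of −0.07. Markers of single neuron types went the other way. Higher values were found for 7 of 10 noradrenergic markers (median 0.20) and 8 of 8 cerebellar granule cell markers (median 1.26). The part of neuron content in the values of the pump was not tested.

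Genes of sorting to the lysosome had 7 higher and 13 lower values of 20, with Cltc, the clathrin heavy chain, at −0.07, the retromer subunit Vps26a at −0.07, the adaptor subunit Ap1m1 at −0.07 and the sorting receptor Sorl1 at −0.0083. Autophagy genes had 13 higher and 17 lower values of 30, with the fusion adaptor Plekhm1 at 0.19 (SE 0.085), Atg14 at 0.15, Tecpr1 at 0.12, the abundant Gabarapl1 at −0.07 and the cargo receptor Sqstm1 at −0.0096. Peptidase inhibitors had 5 higher and 3 lower values of 8, with Serpini1, the neuronal inhibitor neuroserpin, at −0.08, Cst6 at 0.18, Timp3 at −0.06 and Timp2 at 0.0069. The interval lay within 1.5-fold for all 20 sorting genes and all 30 autophagy genes, but for 6 of 8 peptidase inhibitors, 31 of 35 other hydrolases and 29 of 32 other membrane proteins.

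Factors related to Tfeb, such as Tfe3 and Mitf, and genes of their regulation had 12 higher and 11 lower values of 23. The median log2 fold change of this list was 0.01. In 6 of the 23 (26.1%) the groups did not overlap, against 7.42% of all tested genes. This was the highest share among the further lists. It was 8.57% for other hydrolases, 6.25% for other membrane proteins, 6.67% for autophagy genes and 0% for the vacuolar ATPase, sorting and inhibitor lists. Folliculin (Flcn) and its partners Fnip1 and Fnip2 form a complex at the lysosome surface that acts on Rag GTPases and thereby on the phosphorylation of TFEB. Fnip1 read 949.9, 970.2 and 994 in 5xFAD and 867, 917 and 816 in WT, a log2 fold change of 0.17 (SE 0.064). Fnip2 read 408, 407 and 383 in 5xFAD and 305, 373 and 343 in WT, a log2 fold change of 0.23 (SE 0.093). Flcn read 805, 759 and 779.8 in 5xFAD and 712, 706 and 743 in WT, a log2 fold change of 0.12 (SE 0.061). No WT library reached the lowest 5xFAD library for any of these genes. The others without overlap, also named after their values were seen, were the factor Tfe3 at 0.09, and Rheb and Rraga at −0.03 and −0.09. With limma and all tested genes in the adjustment, 0 of the 23 passed, the adjusted p of each of these 6 being 0.9995, and 2 had an unadjusted p under 0.05. The calcineurin subunits Ppp3ca and Ppp3cb, the most abundant of the list, had values of 0.03 and −0.01.

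**Figure D4:**
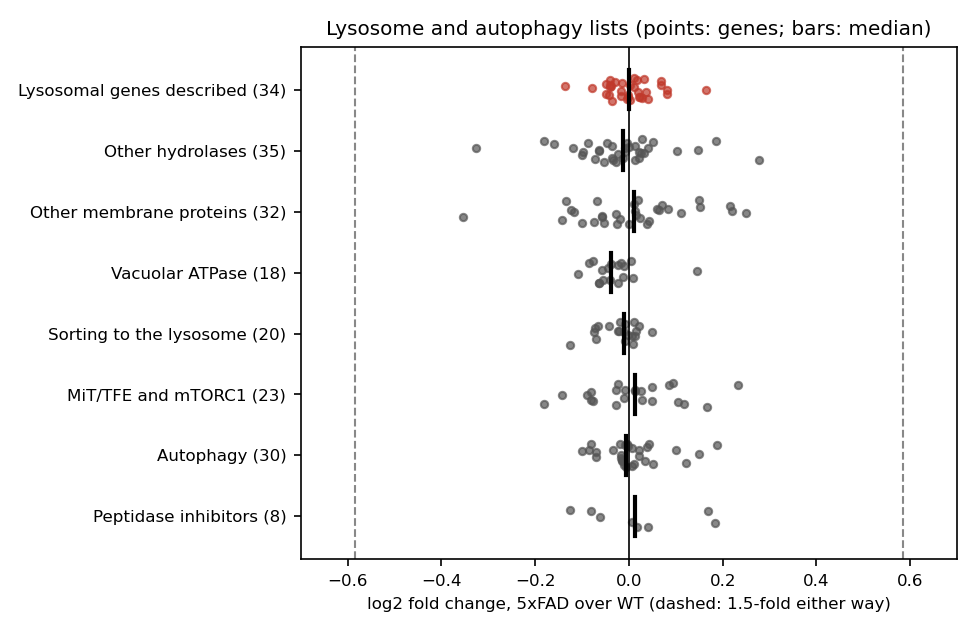
Log2 fold change of every tested gene, 5xFAD over WT, in the lysosomal set (red) and 7 further lists, with the median of each list as a black bar and dashed lines at a 1.5-fold change. All list medians lie between −0.04 and 0.01, and no gene shown reaches the dashed lines.

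The libraries in which the 34 genes were lowest and highest are given next to the same shares over all tested genes. The lowest value of a gene was in 5xFAD 65 for 9 of 34 (26.5%) and in WT 63 for 13 of 34 (38.2%), whereas 21.3% of all tested genes were lowest in 5xFAD 65 and 15.6% in WT 63. The share in 5xFAD 65 was near that background. The highest was in WT 66 for 14 of 34 (41.2%), against 18.6% of all tested genes. The median deviation of the 34 genes from their mean over the 6 libraries was 0.0093, −0.05 and 0.03 on the log2 scale in 5xFAD 64, 65 and 79, and 0.0081, −0.06 and 0.04 in WT 62, 63 and 66. The mean log2 level of the set was 10.1 in each group, with an SD within groups of 0.041 and a difference, 5xFAD minus WT, of 0.0023.

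By summed markers of several cell types, 5xFAD 65 and WT 63 were the 2 lowest or the 2 highest libraries, for some types by small margins. Markers of myelinating oligodendrocytes, 10 in number, summed to 285134, 207770 and 324988 in 5xFAD and 261514, 215451 and 272413 in WT. Microglial markers, 16 in number, summed to 5389, 5206 and 5591 in 5xFAD and 5272, 4935 and 5612 in WT. By both sums 5xFAD 65 and WT 63 were the 2 lowest libraries. They were also the 2 lowest by summed astrocyte markers (84553 in 5xFAD 65 and 82461 in WT 63), pan-neuronal markers (139516 and 150765 in the same order) and endothelial and mural markers (7442 and 7369). They were the 2 highest by summed noradrenergic markers (14001 and 12565) and cerebellar granule cell markers (12543 and 9909.7). Sums weigh abundant markers most. By mean log2 level the pair was lowest for oligodendrocyte and for endothelial and mural markers, but not for the microglial, astrocyte or pan-neuronal ones. Microglial markers were lowest in WT 63 (7.68) and WT 62 (7.73), with 5xFAD 65 at 7.76. Astrocyte markers were lowest in WT 62 (12.12) and WT 63 (12.15), with 5xFAD 65 at 12.19. Pan-neuronal markers were lowest in 5xFAD 65 (13.26) and 5xFAD 64 (13.31), with WT 63 at 13.34. None of the markers of these lists was at 0 in all libraries, and their part in the deviations of the lysosomal genes was not tested. Both libraries lay below the other 4 for 11 of the 34 genes (32.4%), among them Ctsb, Ctsd, Lamp1, Lamp2 and Psap, against 14.8% of all tested genes, and above the other 4 for Gaa alone (2.94%, against 13.7% of all tested genes). The pair was taken, after seeing the data, as the 2 libraries with the lowest summed oligodendrocyte markers. These genes were also most often lowest there, so this count describes the same pattern again and adds no support to it. Without 5xFAD 65 and WT 63 together, 0 of the 34 genes passed, and the median log2 fold change was 0.0030. In that fit 1 of the 34 genes, Cst3, had an unadjusted p under 0.05 (log2 fold change −0.15, limma adjusted p = 0.542). Over all 16411 tested genes, 1100 had such an unadjusted p in the same fit.

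**Figure D5:**
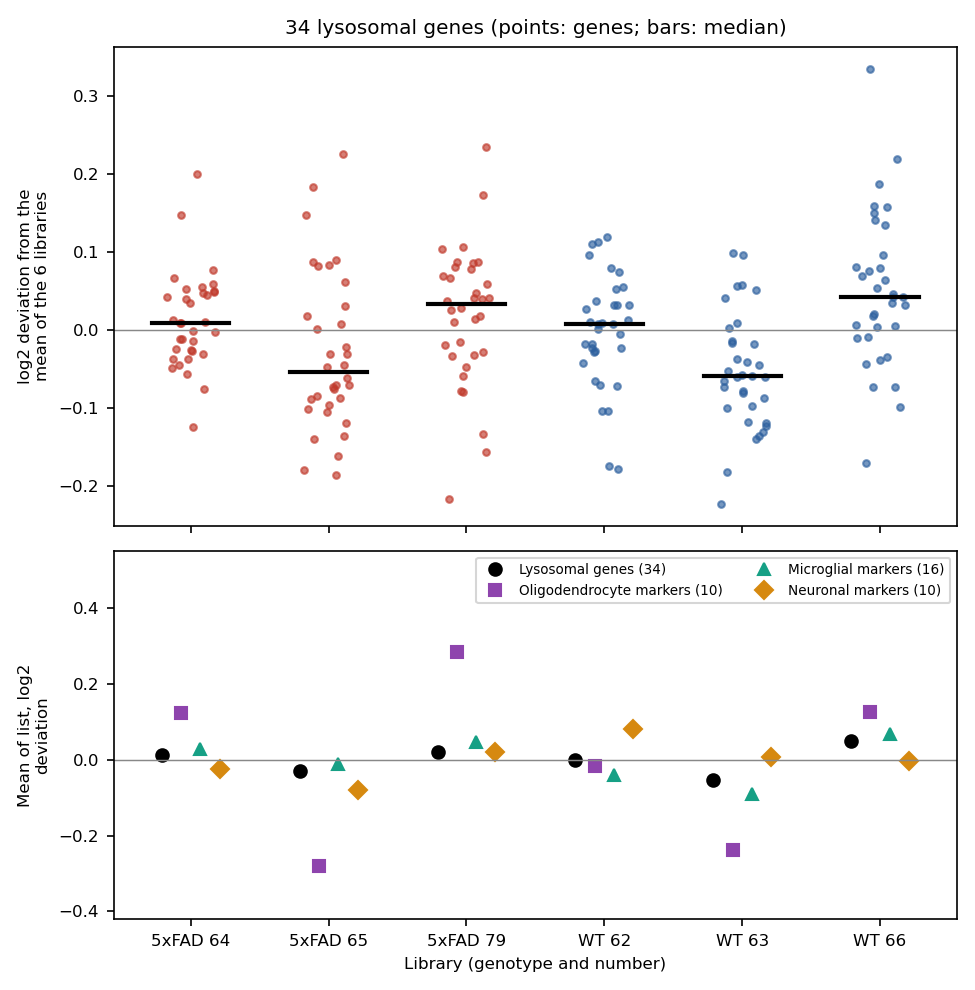
Top, log2 deviation of each lysosomal gene from its mean over the 6 libraries, with the median as a bar; bottom, the same for list means of lysosomal genes and of oligodendrocyte, microglial and neuronal markers. The medians of the lysosomal genes are lowest in 5xFAD 65 (−0.05) and WT 63 (−0.06), and so is the list mean of oligodendrocyte markers, while that of neuronal markers is lowest in 5xFAD 65 and that of microglial markers in WT 63.

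The spread within groups was above counting error for 27 of the 34 genes, with a median SD of 0.091 on the log2 scale against 0.049 from counting alone. Over the 6 libraries the highest value of a gene exceeded its lowest by 1.06-fold to 1.39-fold, with a median of 1.15-fold. In 12 of the 34 genes an annotated exon overlaps an exon of another gene (GENCODE M21), 3 of them on the same strand, namely Ctsl with Gm49230, Ctsd with Gm49369 and Glb1 with Tmppe, so the counts of these 12 are uncertain where the counting strand is not stated. In the authors' deposited table the smallest unadjusted p of the 34 genes was 0.332.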

How the data were processed

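Bulk RNA sequencing of locus coeruleus punches was compared between 3 5xFAD and 3 WT libraries, grouped by sample title. Per the submitters' processing notes, the authors used STAR, RSEM, DESeq2 and the build mm39; for annotation and counting strand, nothing is given in the sources used here. The deposited library columns are a signal, gene counts that the authors divided by 1 size factor per library (0.865 to 1.16). The table is named for TPM, yet 100% of its values were whole multiples of 1 step per library (tolerance 0.001), and the factors equal median-of-ratios factors. Whole reads were recovered from them, 15158712 to 20079349 per library. The deposited table also gives the authors' log2 fold change (WT over 5xFAD) with its standard error, a test score and p-values, per the file headers.

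The 16411 genes that reached 10 normalized counts in 3 or more of the 6 libraries were analysed on the scale log2(normalized count + 1). The test was limma 3.58.1 in R 4.3.3 with variance trend and robust moderation, adjusted by the Benjamini-Hochberg method at 0.05 over all of them. The fit was tested on simulated data. Other settings were other pseudocounts (0.5 and 5), no filter, TMM and quantile scaling, plain limma, edgeR 4.0.16, DESeq2 1.42.0 and leaving out libraries. Symbols came from a table of gene names (91.5% of identifiers matched) and exon lengths from an annotation of another build (GENCODE M21, GRCm38). The text names all 34 genes and, from each other pathway list, the 3 genes with the smallest p and the 2 with the highest mean, apart from an item that is not reported here. The members and lists were chosen with earlier results of these data known.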

Additional observations from a re-analysis of the deposited data

How the results depend on the processing

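No lysosomal gene passed under any of the 15 other settings tried, where the largest log2 fold change in either direction was 0.22 (Naglu, without 5xFAD 79) and the smallest limma adjusted p was 0.542. The median of the set lay between −0.028 and 0.033 when each library was left out in turn, and the number of genes higher in 5xFAD between 11 and 23 of 34. The number of all tested genes called, 1 with limma, was 0 without trend and robust moderation, 4 with DESeq2, 0 to 2 when each library was left out in turn and 9 without 5xFAD 65 and WT 63 together. The last setting was chosen after seeing the data, and it removes the libraries in which these genes were most often lowest. For 25 of the 34 genes, all with values within 0.07 of 0, the sign turned in at least 1 setting. With quantile normalization the log2 fold changes that turned were 0.0063 for Ctsb, −0.0044 for Ctsa, −0.012 for Hexa, −0.016 for Gusb, 0.072 for Psap and −0.00083 for Grn. Leaving out each library in turn, or both of 5xFAD 65 and WT 63, gave log2 fold changes of Ctsf −0.039 to 0.066, Ctsh −0.18 to 0.062, Ctsl −0.040 to 0.023, Ctss −0.16 to 0.033, Lgmn −0.091 to 0.041, Ctsa −0.032 to 0.063, Hexa −0.035 to 0.021, Gusb −0.10 to 0.089, Gaa −0.051 to 0.083, Glb1 −0.024 to 0.046, Neu1 −0.080 to 0.0068, Galc −0.11 to 0.059, Sgsh −0.10 to 0.13, Man2b1 −0.052 to 0.013, Asah1 −0.064 to 0.054, Psap −0.027 to 0.017, Grn −0.010 to 0.053, Lamp1 −0.014 to 0.098, Lamp2 −0.062 to 0.071, Cd63 −0.11 to 0.041, Scarb2 −0.0092 to 0.065, Mcoln1 −0.012 to 0.14, Tfeb −0.015 to 0.15 and Cst3 −0.15 to 0.031. The cause of these turns was not tested. No paired analysis was possible because the groups share no library numbers. Naglu, Ctsh, Sgsh and Tfeb had the fewest reads, and counting error exceeded the spread within groups for Naglu (SD 0.17 against 0.10 on the log2 scale) but not for the other 3.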
